A study of Homo sapiens with 2 samples.

Results

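The miR-183/96/182 cluster holds 3 microRNA hairpins, each of which can give a mature microRNA from its 5′ arm (5p) and from its 3′ arm (3p). Its 6 mature products, hsa-miR-183-5p, hsa-miR-183-3p, hsa-miR-96-5p, hsa-miR-96-3p, hsa-miR-182-5p and hsa-miR-182-3p, were taken by name from the 2656 mature microRNAs of the deposited count table, and all 6 were found. The table comes from small RNA sequencing of MDA-MB-231, an established human breast cancer cell line, transduced either with a control shRNA (shLuc) or with one directed against ELOVL5 (shELOVL5). ELOVL5 is an elongase of polyunsaturated fatty acids. Both cultures carried an shRNA and were grown in high-glucose DMEM with fetal bovine serum. The labels give no clone, vector, selection or time after transduction, and their extraction text speaks of frozen tumor samples although the other labels describe the cell line. There was 1 library per condition, so no difference could be tested against the variation between cultures. The question put to the data was how far the cluster's products in shELOVL5 cells differed from those in shLuc cells. ELOVL5 mRNA was not analysed here, so the table cannot show how far the target was reduced.

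MicroRNAs are cut from hairpins in a longer primary transcript, first by Drosha in the nucleus and then by Dicer, and one arm of the resulting duplex (the guide) is usually kept in Argonaute while the other (the passenger) is lost. The guide finds its target mRNAs mainly through its seed, bases 2 to 8 from the 5′ end. The miR-183/96/182 cluster is known from sensory organs, where it is abundant in hair cells and photoreceptors and where changes in the seed of miR-96 cause hereditary hearing loss. It is also raised in many carcinomas, and miR-96 and miR-182 are known repressors of the transcription factor FOXO1 in breast cancer cells.

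The mature sequences are shown because the 3 guide arms resemble each other closely and yet have different seeds. They come from RefSeq on GRCh38.p14, which held all 6, and are written 5′ to 3′ with the seed in capitals.
hsa-miR-183-5p: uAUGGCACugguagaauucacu
hsa-miR-96-5p: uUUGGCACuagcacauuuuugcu
hsa-miR-182-5p: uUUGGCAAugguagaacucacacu
hsa-miR-183-3p: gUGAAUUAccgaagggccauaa
hsa-miR-96-3p: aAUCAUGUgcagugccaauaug
hsa-miR-182-3p: uGGUUCUAgacuugccaacua
The 3 guide arms all begin with U and share the letters UGGCA within their first 8 bases. These letters stood in the first 8 bases of 20 of the 2370 mature human microRNAs in the RefSeq table (0.844%). Compared base by base from the 5′ end without gaps, miR-183-5p and miR-182-5p shared 18 of 22 bases and differed by A2U, C8A, U17C and U22A, with the base of miR-183-5p given first. miR-96-5p shared 13 of 22 bases with miR-183-5p and 12 of 23 with miR-182-5p. Within bases 2 to 8, miR-183-5p differed from miR-96-5p at A2U alone, and miR-96-5p from miR-182-5p at C8A alone. The exact complements of the seeds, the letters a target site would carry, were therefore GUGCCAU for miR-183-5p, GUGCCAA for miR-96-5p and UUGCCAA for miR-182-5p. Among all mature sequences of the RefSeq table, the one closest to miR-183-5p was miR-182-5p and the reverse, at 4 mismatches. For the other members the closest sequence had at least 6 mismatches over 16 or more aligned bases, so read sharing with other microRNAs would need a loose mismatch setting. That setting is not given in the sources used here, nor is the counting program.

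The hairpins lie on the minus strand of chromosome 7 (GRCh38, GENCODE release 29). In the direction of transcription MIR183 comes first, at 129774905 to 129775014. MIR96 follows 135 bases further on, at 129774692 to 129774769, and MIR182 lies another 4199 bases on, at 129770383 to 129770492. The whole cluster spans 4632 bases and overlapped no other annotated gene. The nearest protein-coding genes were NRF1, a transcription factor gene 13300 bases away on the plus strand, and UBE2H, a ubiquitin-conjugating enzyme gene 55717 bases away on the minus strand. The RefSeq hairpins of MIR182 and MIR96 are shown with both mature arms in capitals, to place the guide and passenger arms against each other.
MIR182: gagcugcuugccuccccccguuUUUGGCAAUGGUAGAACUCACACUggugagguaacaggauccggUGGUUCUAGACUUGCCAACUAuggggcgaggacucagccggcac
MIR96: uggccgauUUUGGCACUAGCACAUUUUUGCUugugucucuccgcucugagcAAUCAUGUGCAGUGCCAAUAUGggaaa
The passenger arms of both hairpins hold the exact complement of their guide's seed at bases 12 to 18, UUGCCAA in miR-182-3p and GUGCCAA in miR-96-3p. miR-183-3p does not hold GUGCCAU. Across the 163 hairpins with both arms in the RefSeq table and enough counts for the arm comparison described further on, the less abundant arm held such a complement in 20 (12.3%).

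The shELOVL5 library held 6811811 microRNA counts and the shLuc library 7109272. Levels are given as counts per 1000000 counts after TMM scaling (CPM). Levels of different members were set side by side on this scale, on the assumption that each read stands for a whole mature microRNA of 21 to 24 bases. The counts do not give read lengths, and biases of ligation and PCR remain. Intervals are exact 95% intervals that cover counting error only, and the labels describe no molecular identifiers. A microRNA is called expressed when its unscaled mean was at least 50 CPM with at least 100 counts over both libraries, which held for 191. In both libraries miR-100-5p, miR-221-3p and miR-222-3p, abundant in this line, had more than 10 times the level of miR-182-5p. miR-146a-5p, also known as abundant there, had 2069 CPM in shLuc and 3803 in shELOVL5, and the most abundant epithelial microRNA listed, miR-200b-3p, had 180 and 236 CPM.

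The guide arms of the cluster were moderately abundant in both libraries and the passenger arms rare. miR-182-5p had 27110 counts (3861 CPM, 3815 to 3907) in shLuc and 20541 (2978 CPM, 2938 to 3019) in shELOVL5. miR-183-5p had 20776 counts (2959 CPM, 2919 to 2999) in shLuc and 14348 (2080 CPM, 2046 to 2115) in shELOVL5. By mean level these guides were the 38th and 46th of the 2656 microRNAs. miR-96-5p, the member whose seed is changed in hereditary hearing loss, was the 121st, with 1759 counts (251 CPM, 239 to 263) in shLuc and 1591 (231 CPM, 219 to 242) in shELOVL5. All 3 guide arms were thus lower in shELOVL5, with the narrowest gap in miR-96-5p.

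Of the passenger arms, miR-183-3p had 72 counts (10.3 CPM, 8.02 to 12.9) in shLuc and 106 (15.4 CPM, 12.6 to 18.6) in shELOVL5. miR-182-3p had 30 counts (4.27 CPM, 2.88 to 6.10) in shLuc and 17 (2.46 CPM, 1.44 to 3.95) in shELOVL5. miR-96-3p had 5 counts (0.712 CPM, 0.231 to 1.66) in shLuc and 3 (0.435 CPM, 0.0897 to 1.27) in shELOVL5, which is at the level that a count of 0 still allows. None of the passenger arms passed the expression limit. miR-183-3p was the only member with more reads in shELOVL5 than in shLuc. The order of the levels was the same in both libraries, from miR-182-5p through miR-183-5p, miR-96-5p, miR-183-3p and miR-182-3p to miR-96-3p, and no 2 neighbours in it had overlapping counting intervals within a library.

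**Figure D1:**
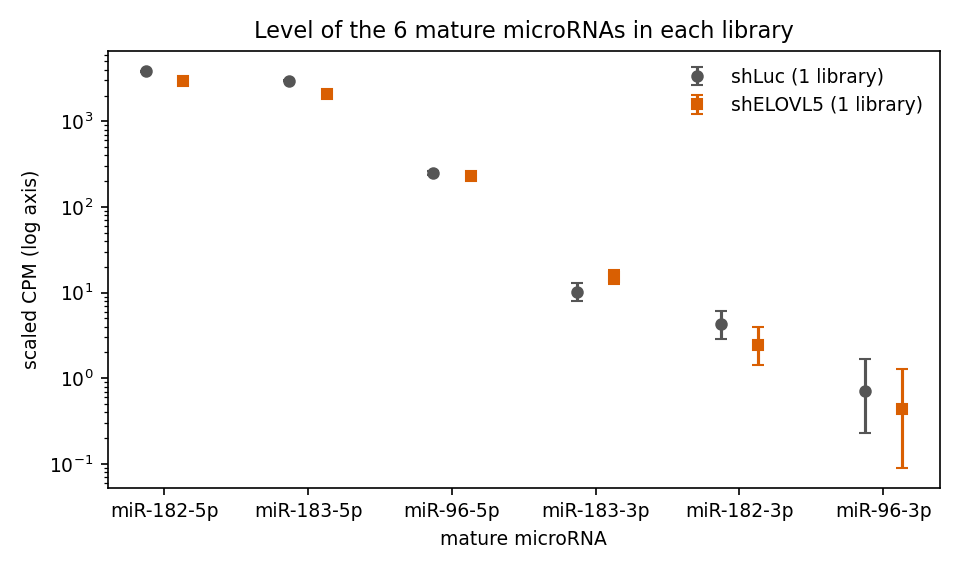
Scaled CPM (log axis) of the 6 mature microRNAs of the cluster in the shLuc library (circles) and the shELOVL5 library (squares), with exact 95% counting intervals as bars. The 3 guide arms (5p) lie at 231 CPM and above and are lower in shELOVL5, while miR-183-3p, at 10.3 and 15.4 CPM, is higher.

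The ratio of the libraries, shELOVL5 over shLuc in scaled CPM, was 0.703 (0.688 to 0.718) for miR-183-5p, a level 1.42-fold lower. For miR-182-5p it was 0.771 (0.757 to 0.785), 1.30-fold lower. For miR-96-5p it was 0.921 (0.860 to 0.986), 1.09-fold lower. None of the 3 reached the 2-fold size rule, which 0 of the 191 expressed microRNAs met in the lower direction (0%) and 3 in the higher (1.57%). At a 1.5-fold rule, where 1 of 191 (0.524%) was lower and 6 (3.14%) were higher, no member was counted either. A looser rule asked that the level in 1 library be at most 0.8 times that in the other. By it miR-183-5p and miR-182-5p were lower in shELOVL5, against 19 of the 191 (9.95%) lower and 19 (9.95%) higher. With total count scaling this background was 13 lower and 29 higher, and with DESeq2 size factors 25 and 18. The DESeq2 size factors were 1 for both libraries, so that setting compared unscaled counts. Under both settings the same 2 members were lower. Fewer cells making these microRNAs and fewer molecules per cell cannot be told apart in bulk RNA.

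Only 3 of the 191 expressed microRNAs had a lower ratio than miR-183-5p. They were miR-151a-3p at 0.640, miR-99b-5p at 0.678 and miR-181a-2-3p at 0.688, named after their values were seen. Of 26 expressed microRNAs within 2-fold of its mean level, none had a lower ratio, and their ratios ran from 0.727 to 1.84 with a median of 0.982. For miR-182-5p, 10 of the 191 had a lower ratio, as did 2 of the 27 within 2-fold of its level, and both counts included miR-183-5p. miR-96-5p lay well inside its surroundings, with 67 of the 191 and 18 of the 52 of similar level below it. The median ratio over all 191 was 0.978, with 61 counting intervals wholly above 1, 80 wholly below and 50 that held 1. A counting interval below 1 alone, as miR-96-5p had, was therefore common.

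**Figure D2:**
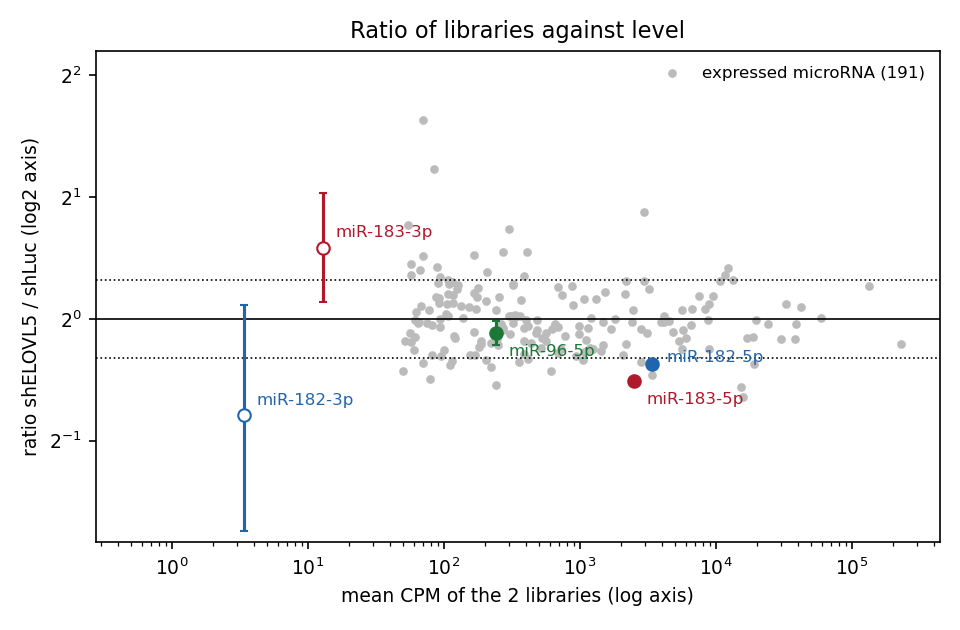
Ratio of scaled CPM (shELOVL5 over shLuc, log2 axis) against the mean CPM of the libraries (log axis) for the 191 expressed microRNAs (grey), with cluster members in colour (filled 5p, open 3p, bars are 95% counting intervals). Dotted lines mark a ratio of 0.8 and its inverse; miR-183-5p and miR-182-5p lie below the lower line and miR-183-3p above the upper line; miR-96-3p (8 counts in all) is not drawn and 1 expressed microRNA lies above the axis.

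Summed over the 6 members, the cluster had 49752 counts (0.700% of the library, 0.694 to 0.706%) in shLuc and 36606 (0.537%, 0.532 to 0.543%) in shELOVL5. The summed scaled level was 7086 CPM in shLuc and 5307 in shELOVL5, a ratio of 0.749 (0.739 to 0.759). The guide arms gave nearly all of these counts. The 3 passenger arms together had 107 and 126 counts, a ratio of 1.20 (0.919 to 1.57) whose interval held 1.

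The members did not shift equally. The comparison of members within a library does not depend on scaling. In shLuc there were 11.8 reads of miR-183-5p for each read of miR-96-5p, and in shELOVL5 9.02. The log2 ratio of miR-183-5p was lower than that of miR-96-5p by a difference of -0.39 (-0.49 to -0.29), and lower than that of miR-182-5p by -0.13 (-0.17 to -0.093). The log2 ratio of miR-96-5p exceeded that of miR-182-5p by 0.26 (0.15 to 0.36). All 3 pairs thus differed by more than counting error, and whether they would differ between repeated cultures cannot be known from 1 library each. How many other pairs of expressed microRNAs differed in this way was not counted. Among single ratios, 61 of the 191 expressed microRNAs had counting intervals wholly above 1 and 80 wholly below. Differences beyond counting error are therefore not particular to the cluster.

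The make-up of the cluster moved accordingly. The miR-183 hairpin gave 41.9% (41.5 to 42.3%) of the cluster's counts in shLuc and 39.5% (39.0 to 40.0%) in shELOVL5. The miR-96 hairpin gave 3.55% (3.38 to 3.71%) and 4.35% (4.15 to 4.57%). The miR-182 hairpin gave 54.6% (54.1 to 55.0%) and 56.2% (55.7 to 56.7%). The share of the miR-183 hairpin was thus lower in shELOVL5 and the shares of the other two higher.

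Within each hairpin the 5p arm took over 99% of the counts in both libraries. The passenger share of the miR-183 hairpin was 0.345% (0.270 to 0.435%) in shLuc and 0.733% (0.601 to 0.886%) in shELOVL5. That of the miR-182 hairpin was 0.111% (0.0746 to 0.158%) and 0.0827% (0.0482 to 0.132%). That of the miR-96 hairpin was 0.283% (0.0921 to 0.660%) and 0.188% (0.0388 to 0.549%). The intervals of the libraries did not overlap for the miR-183 hairpin and overlapped for the miR-182 and miR-96 hairpins. The background over all hairpins is given below, as intervals of the shift in arm balance.

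The arms of the miR-183 hairpin went opposite ways, with miR-183-3p at a ratio of 1.5 (1.1 to 2.05) against 0.703 for miR-183-5p. The ratio of 3p to 5p reads was thereby 2.13-fold higher in shELOVL5 (1.56 to 2.92), a log2 change of 1.09 (0.65 to 1.55). For the miR-182 hairpin the same log2 change was -0.42 (-1.37 to 0.49), and for the miR-96 hairpin -0.59 (-3.28 to 1.77). With 47 and 8 passenger counts in all, a shift like that of miR-183 was not detectable in the miR-96 hairpin, whereas the interval for miR-182 ended below the value for miR-183.

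The arm balance was compared with that of every hairpin whose arms summed to 100 counts or more in the libraries together and whose less abundant arm was found in each of them. Of these 190 hairpins, 11 (5.79%) had a shift of at least 2-fold towards the less abundant arm in shELOVL5, miR-183 among them, and 9 (4.74%) a shift of at least 2-fold away from it. The median log2 shift was 0.032. The counting interval of the shift lay wholly above 0 in 34 of the 190, miR-183 among them, and wholly below 0 in 21. A shift beyond counting error alone was therefore common. Hairpins that share a mature arm were each given its whole count. Identical arm pairs, such as those of let-7a-1 and let-7a-3, were therefore counted repeatedly among the 190. Only 9 hairpins had a higher shift than miR-183. Of 42 other hairpins whose less abundant arm had between 0.5 and 2 times the counts of miR-183-3p, none had a higher shift, and theirs ran from a log2 change of -0.72 to 0.84 with a median of 0.0016. In 10 of the 190 hairpins (5.26%), miR-183 included, the arms lay on opposite sides of a ratio of 1 with both counting intervals.

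**Figure D3:**
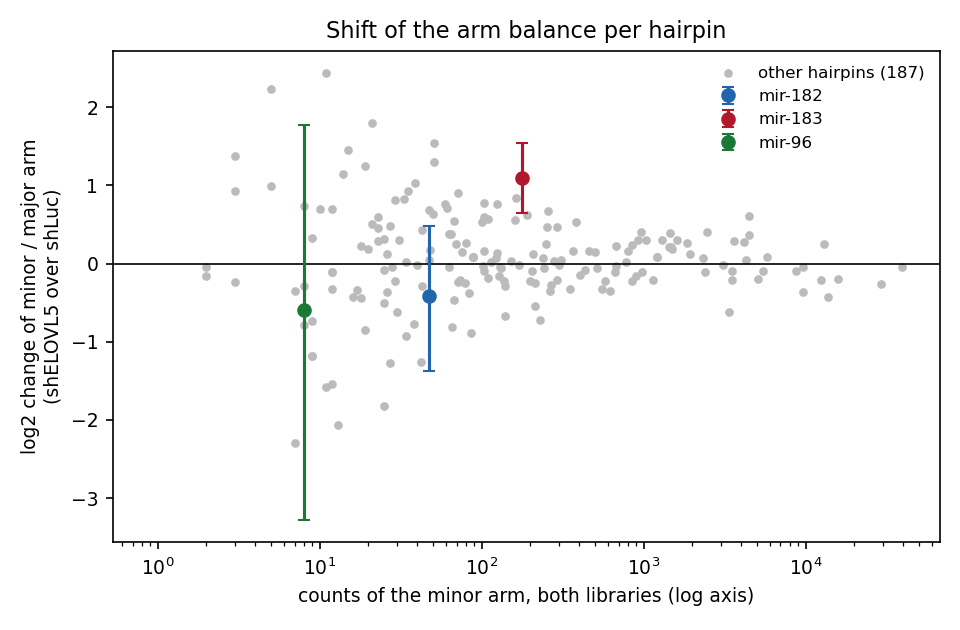
Log2 change (shELOVL5 over shLuc) of the ratio of the less abundant (minor) to the more abundant (major) arm against the counts of the minor arm (log axis) for 190 hairpins, with the cluster's hairpins in colour and 95% counting intervals as bars. The miR-183 hairpin, at 1.09 with 178 minor-arm counts, lies above the hairpins of similar minor-arm counts, while the intervals of miR-182 and miR-96 hold 0.

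Among the mature sequences of the RefSeq table, only hsa-miR-1271-5p shares a seed with a guide arm of the cluster, UUGGCAC with miR-96-5p. Its sequence shows the shared seed in capitals.
hsa-miR-1271-5p: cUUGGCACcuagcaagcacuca
It had 54 counts (7.69 CPM) in shLuc and 46 (6.67 CPM) in shELOVL5, a ratio of 0.867 (0.572 to 1.31). Nearly all reads with this seed thus came from miR-96-5p. No other mature microRNA of the RefSeq table had the seed of a guide arm of the cluster. Seeds of the passenger arms, and counted microRNAs without a RefSeq sequence, are not covered by this statement.

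MicroRNAs elsewhere on 7q32 were described next, since they lie in the same chromosome band but outside the cluster. Of 10 mature microRNAs from the 5 other hairpins listed there, 3 were expressed, and 0 of these had an interval below 1. miR-29a-3p, a repressor of collagen genes whose hairpin lies 1.1 Mb from the cluster on the same strand, had 71451 counts in shLuc and 90085 in shELOVL5, a ratio of 1.28 (1.27 to 1.30). Its partner miR-29b-3p, which is also made from a second locus, had 958 and 1350, a ratio of 1.43 (1.32 to 1.56). The passenger arm miR-29b-1-5p, specific to the 7q32 locus and below the expression limit, had 178 and 227 counts, a ratio of 1.30 (1.06 to 1.59). These products of the miR-29 hairpins stood on the other side of 1 from the cluster's guide arms. miR-335-3p, from an intron of the imprinted gene MEST 0.721 Mb from the cluster, had 2797 and 2608 counts, a ratio of 0.949 (0.900 to 1.00). Its other arm miR-335-5p, below the expression limit, had 358 and 309, a ratio of 0.879 (0.752 to 1.03). Both miR-335 arms thus lay on the cluster's side of 1 with intervals that held 1. miR-129-5p, also below the limit and made from a second locus too, had 191 and 325 counts, a ratio of 1.73 (1.44 to 2.08). Both arms of the miR-593 hairpin were at 0 counts throughout, a result that allows for up to 0.427 CPM in shLuc and 0.435 in shELOVL5.

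**Figure D4:**
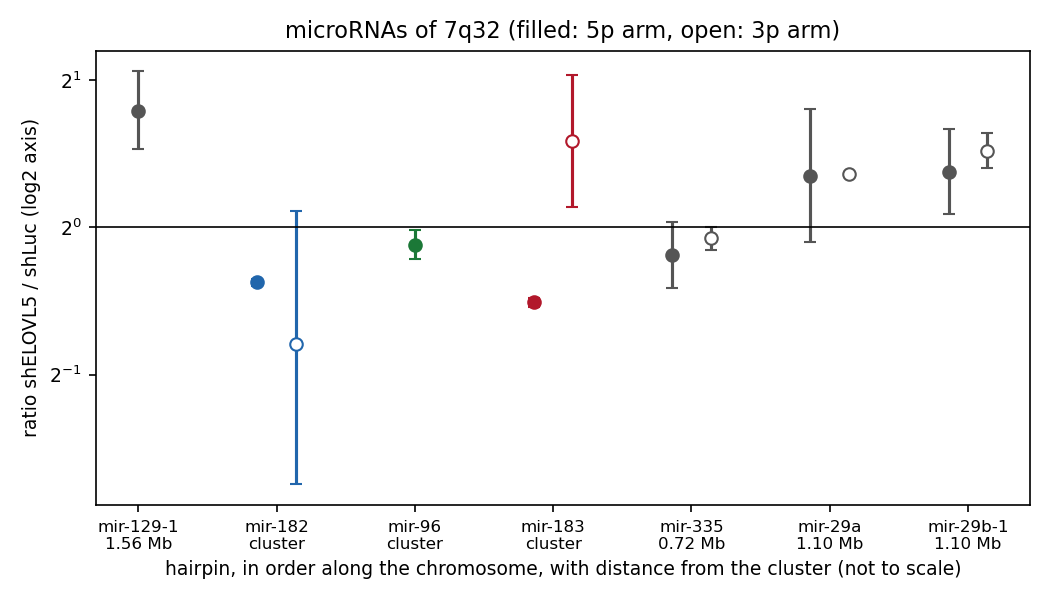
Ratio of scaled CPM (shELOVL5 over shLuc, log2 axis) for mature microRNAs of hairpins on 7q32, in order along the chromosome and not to scale, with 95% counting intervals (filled 5p, open 3p, cluster in colour). The cluster's guide arms lie below 1 and both arms of miR-29a and miR-29b-1 above 1 (the interval of miR-29a-5p holds 1); miR-129-5p and miR-29b-3p have another locus elsewhere, and miR-96-3p, miR-129-1-3p (7 counts) and the uncounted miR-593 are not drawn.

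FOXO1 and FOXO3 are transcription factors that restrain growth, and a list of 12 microRNAs known to repress either of them set the cluster beside others with the same targets. Of the 12, 9 were expressed, with 6 intervals below 1 and 3 above, and their median ratio was 0.921 against 0.978 for all 191 expressed microRNAs. Without miR-182-5p and miR-96-5p, 7 of 10 were expressed, with 4 intervals below 1 and 3 above and a median of 0.973. The most abundant were miR-221-3p at 0.973 (0.967 to 0.978) and miR-222-3p at 0.894 (0.889 to 0.898), which are known to repress FOXO3. miR-132-3p stood at 0.906 (0.821 to 0.999) and miR-9-5p at 0.837 (0.752 to 0.931). miR-27a-3p, which is known to act on FOXO1 together with miR-96 and miR-182, stood at 1.238 (1.226 to 1.251). miR-135b-5p stood at 1.43 (1.26 to 1.63) and miR-139-5p at 1.16 (1.07 to 1.26). The expressed microRNAs of this list therefore went both ways, and miR-182-5p had the lowest ratio among them.

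The epithelial microRNAs, of which the miR-200 family maintains epithelial identity, did not show the lower levels of the cluster's guide arms. Of 7 listed, 3 were expressed, with 2 intervals above 1 and 0 below. miR-200b-3p had 1265 counts in shLuc and 1626 in shELOVL5, a ratio of 1.31 (1.22 to 1.41). miR-200a-3p had 281 and 471, a ratio of 1.71 (1.47 to 1.99), and miR-200c-3p 467 and 450, a ratio of 0.981 (0.860 to 1.12). miR-200a-3p stood at 40.0 scaled CPM in shLuc and 68.3 in shELOVL5, and passed the limit on the mean only through shELOVL5. Its count among the expressed microRNAs with an interval above 1 is therefore partly set by that limit. miR-200b-3p and miR-200c-3p were above the limit in both libraries.

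The expressed microRNAs most like each guide arm were found by the distance between their log2 scaled CPM over the 2 libraries. For miR-183-5p they were miR-128-3p (distance 0.28, ratio 0.782) and miR-941 (0.33, ratio 0.865). For miR-182-5p they were miR-23b-3p (0.066, ratio 0.727) and miR-320a-3p (0.26, ratio 0.925). For miR-96-5p they were miR-152-3p (0.051, ratio 0.894) and miR-30c-2-3p (0.11, ratio 0.860). No other member of the cluster was among the nearest 2 to any guide arm. With 2 libraries this likeness rests on level and ratio alone.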

How the data were processed

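Small RNA libraries of MDA-MB-231 cells were compared, 1 for shELOVL5 and 1 for shLuc. The authors deposited raw read counts for each pair of precursor and mature microRNA, without normalization. Per the submitters' processing notes the tools were FastQC 0.11.9, cutadapt 2.10 and Bowtie 1.1.1. How they were set, which program counted the reads against which annotation, and how multiply mapped reads were treated is not stated there. The table had 2886 lines. For the 166 mature microRNAs listed under more than 1 precursor the highest copy was kept, which touched no member.

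Scaling used TMM factors from edgeR 4.0.16 in R 4.3.3 (1.01 for shELOVL5, 0.988 for shLuc). Intervals were Clopper-Pearson for shares and ratios, and exact conditional for ratios of ratios. No p-value was computed with 1 library per condition, and replicates could not be compared. Ratios, shares and their Clopper-Pearson intervals were tested on counts simulated with counting error only. Such a test checks the calculation and says nothing of the variation between cultures. The exact conditional intervals were not tested in this way. Alternatives tried were size factors from DESeq2 1.42.0 (1 for both libraries), total count scaling, 5 CPM added and sums over precursor rows. Further ones were other abundance limits, whole intervals past the fold, 1000 counts per hairpin, and 5p arms alone.

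The members, lists and fold rules were chosen with earlier results of these data known. Named microRNAs were the members, those sharing a seed, the nearest 2 by level, expressed members of the 7q32 and FOXO lists and the 3 most abundant of the epithelial and sensory lists. Any other microRNA was named after its values were seen, unless it belongs to a marker list. Positions were read from GENCODE release 29 and sequences from RefSeq, with 2367 of the 2656 names matched. For the authors' genome build, none was given in the sources used here.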

Additional observations from a re-analysis of the deposited data

How the results depend on the processing

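No paired analysis was possible because there was only 1 library of each kind, and leaving out a library would leave no comparison. No member ratio, nor the ratio of the 6 members summed, changed its direction under the scalings, the added CPM or the sum over precursor rows. The sums of the 5p arms, the 3p arms and the lists were not recomputed. Total count scaling shifted every log2 ratio by 0.036 and DESeq2 size factors by -0.026. Under total count scaling the ratio was 0.721 for miR-183-5p, 0.791 for miR-182-5p and 0.768 for the summed cluster, and with DESeq2 size factors the summed cluster had 0.736. The other member ratios and the make-up of the cluster stayed within their counting intervals under the alternatives run for each. For the arm shares and the differences between guide arms only the sum over precursor rows was run. It could not change them, since each member had 1 precursor row. The count of expressed microRNAs depended on the abundance limit. With a mean of at least 10 CPM, 313 microRNAs were compared. Of these, 49 (15.7%), 17 (5.43%) and 5 (1.60%) were higher by the rule of 0.8, the 1.5-fold rule and the 2-fold rule. The 49 included miR-183-3p. By the rule of 0.8 and the 1.5-fold rule, 31 (9.90%) and 4 (1.28%) were lower. With at least 1000 CPM, 3 (4.41%), 1 (1.47%) and 0 (0%) of 68 were higher and 8 (11.8%) were lower by the rule of 0.8. With no limit beyond 1 count in each library, 298 (29.1%), 204 (19.9%) and 120 (11.7%) of 1024 were higher. In the other direction 255 (24.9%), 165 (16.1%) and 77 (7.52%) were lower. The 298 included miR-183-3p, and both the 255 and the 165 included miR-96-3p and miR-182-3p. With the whole interval past the limit of 0.8, 12 of 191 (6.28%) were higher and 10 (5.24%) lower. By the rule of 0.8, total count scaling gave 29 of 191 higher (15.2%), and at 1.5-fold DESeq2 size factors gave 2 lower (1.05%). miR-183-5p and miR-182-5p were lower by the rule of 0.8 in each of these settings. Of the hairpins, 32 of 190 had a shift of at least 1.5-fold towards the less abundant arm, and 18 of 129 with at least 1000 counts. Depth limits the passenger arms, above all miR-96-3p.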

Other observations

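The cluster is best known from sensory organs, and 7 microRNAs of sensory and neural tissue were set beside it. Of these, 4 were expressed, with 2 intervals below 1 and 1 above, and a median ratio of 0.926. miR-7-5p, made in neurons and endocrine cells, had 29062 counts in shLuc and 28993 in shELOVL5, a ratio of 1.02 (0.999 to 1.03). miR-128-3p, abundant in brain, had 22379 and 17197, a ratio of 0.782 (0.767 to 0.798), and miR-138-5p 4841 and 5441, a ratio of 1.14 (1.1 to 1.19). miR-124-3p, the defining neuronal microRNA, and miR-211-5p had 0 counts in both libraries. The cluster's guide arms were thus counted together with 4 expressed microRNAs of this list, while these 2 had no counts.

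Markers of other cell types are given because the extraction text speaks of tumor samples. Of 7 blood cell microRNAs, only miR-486-5p was expressed, and the list summed to 398 CPM in shLuc and 331 in shELOVL5, with miR-144-3p and miR-223-3p at 0 counts in both libraries and miR-451a at 2 and 6. Within that list miR-142-5p had 6 and 84 counts and miR-142-3p 2 and 45. Of 6 stromal and endothelial microRNAs, only miR-126-3p was expressed, and the list summed to 635 and 759 CPM, with miR-143-3p at 12 and 11 counts and miR-145-5p at 2 and 3. The part of these differences in the values of the cluster was not tested.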
